A study of Homo sapiens with 6 samples.

Results

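Genes of MHC class I antigen presentation were examined in KYSE450, a cell line from a human squamous cell carcinoma of the esophagus with wild-type NRF2, and in KEAP1null-KYSE450, a monoclonal line made from it by CRISPR-Cas9 editing of KEAP1. The group held 9 genes given by symbol, HLA-B, HLA-C, HLA-E, HLA-F, B2M, TAP1, TAP2, TAPBP and PSMB9, out of 58884 rows in the deposited expression matrix, and each symbol had 1 row. RNA was sequenced from 3 libraries of each line, grown without treatment in the same medium, and the matrix held read counts divided by 1 factor per library. KEAP1null-KYSE450 is 1 clone, so whatever else set the clone apart from its parent cannot be told apart from KEAP1 loss. Summed normalized counts lay between 54829313 and 57380170 per library, and the reads recovered in 4 libraries lay between 53027359 and 61543442. KEAP1 mRNA did not separate the lines, with 5377 ± 334 normalized counts in KYSE450 and 5320 ± 415 in KEAP1null-KYSE450 (SD, n = 3 each), and a count per gene does not show an edit. NQO1, a classical NRF2 target, rose from 16625 ± 817 to 107758 ± 3247 normalized counts (SD, n = 3 each). Of 7 squamous epithelial markers, all 7 were expressed, although KRT14 was at 34.5 ± 6.3 normalized counts in KEAP1null-KYSE450. Summed leukocyte markers stayed between 6.12 and 31.0 normalized counts per library, with NKG7 at 0 in all 6. Summed endothelial markers lay between 41.5 and 73.8, and PECAM1 was at 0 in all 6. Summed fibroblast markers lay between 622 and 853 in KYSE450 and between 336 and 436 in KEAP1null-KYSE450, nearly all of it COL1A1, and COL1A2 and DCN were near 0.

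MHC class I molecules show peptides from inside the cell to CD8+ T cells and natural killer cells. Proteasomes cut proteins into peptides, the TAP transporter carries these into the endoplasmic reticulum, and tapasin holds the empty class I molecule at the transporter until a peptide is bound. The molecule itself is a polymorphic heavy chain paired with the invariant light chain beta-2-microglobulin, without which heavy chains do not reach the surface. Most of these genes lie together in the MHC on the short arm of chromosome 6 and are induced by interferons, while B2M lies on chromosome 15.

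Promoter windows are shown for 5 of the genes, since TAP1 and TAPBP were among the genes that fell furthest, B2M did not pass the test, HLA-B stands for the heavy chains, and PSMB9 is the divergent neighbour of TAP1. Each is the RefSeq sequence on GRCh38.p14 from 250 bases before to 50 bases after the gene's start, read 5′ to 3′ in the direction of the gene. Capitals mark the core of the interferon-stimulated response element, GAAA and GAAA separated by any 2 bases, on either strand.
TAP1 promoter, chr6:32853655-32853954, minus strand: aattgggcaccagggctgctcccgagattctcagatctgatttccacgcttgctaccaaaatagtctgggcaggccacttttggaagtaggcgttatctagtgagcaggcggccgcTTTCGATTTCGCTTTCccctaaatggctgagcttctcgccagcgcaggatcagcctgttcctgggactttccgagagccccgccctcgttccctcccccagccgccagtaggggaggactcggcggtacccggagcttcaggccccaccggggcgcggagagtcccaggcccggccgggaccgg
TAPBP promoter, chr6:33314029-33314328, minus strand: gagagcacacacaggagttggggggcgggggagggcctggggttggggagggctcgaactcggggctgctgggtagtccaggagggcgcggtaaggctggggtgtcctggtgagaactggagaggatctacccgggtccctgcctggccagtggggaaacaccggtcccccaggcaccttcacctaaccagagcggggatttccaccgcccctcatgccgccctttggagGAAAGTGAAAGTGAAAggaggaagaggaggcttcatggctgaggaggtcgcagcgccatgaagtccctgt
B2M promoter, chr15:44711267-44711566, plus strand: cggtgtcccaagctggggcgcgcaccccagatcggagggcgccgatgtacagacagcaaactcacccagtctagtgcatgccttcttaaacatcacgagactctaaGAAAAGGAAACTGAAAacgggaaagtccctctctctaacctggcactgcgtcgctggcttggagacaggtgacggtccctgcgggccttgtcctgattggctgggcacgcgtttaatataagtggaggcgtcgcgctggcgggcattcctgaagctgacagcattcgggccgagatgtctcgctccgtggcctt
HLA-B promoter, chr6:31357130-31357429, minus strand: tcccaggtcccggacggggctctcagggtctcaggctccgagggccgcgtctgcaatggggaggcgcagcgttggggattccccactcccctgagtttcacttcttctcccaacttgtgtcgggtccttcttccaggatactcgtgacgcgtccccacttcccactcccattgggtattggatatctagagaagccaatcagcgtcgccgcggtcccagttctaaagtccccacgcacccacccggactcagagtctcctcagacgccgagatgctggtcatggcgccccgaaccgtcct
PSMB9 promoter, chr6:32853942-32854241, plus strand: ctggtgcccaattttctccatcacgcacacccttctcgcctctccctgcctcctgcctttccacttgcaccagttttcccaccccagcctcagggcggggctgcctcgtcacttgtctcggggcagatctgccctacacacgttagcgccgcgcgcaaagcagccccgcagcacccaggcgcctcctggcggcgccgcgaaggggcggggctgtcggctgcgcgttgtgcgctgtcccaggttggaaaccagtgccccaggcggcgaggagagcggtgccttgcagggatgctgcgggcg
A window was found for 8 of the 9 genes, all but HLA-E. The core was present in 5 of these windows, those of HLA-F, B2M, TAP1, TAP2 and TAPBP, against 3.66% of 27305 promoter windows of the same length. In TAP1, TAPBP and B2M 2 overlapping copies stood next to each other. Of the 5 genes with the core, HLA-F, TAP1, TAP2 and TAPBP had lower mRNA in KEAP1null-KYSE450 and B2M did not pass the test. HLA-B, HLA-C and PSMB9, with no match, had lower mRNA as well. The kappaB pattern, GGG and CC separated by any 5 bases, was present in 6 of the 8 windows, but also in 58% of all windows, and copies can overlap. The Y box pattern ATTGG was present in 6 windows (35.7% of all) and TGACG, part of the X2 box of class I promoters, in 5 (25% of all). The pattern TGACNNNGC of the antioxidant response element, the site through which NRF2 acts, occurred in 1 window, that of PSMB9 (13.6% of all), where it overlapped TGACG. TTCNNNGAA, the interferon-gamma activated site, occurred in 0 of the 8 windows (7.88% of all). All patterns were searched on both strands, and a match is a description of letters only. Variants that differ from the fixed letters were not counted, so a window without a match can still hold a variant. The starts of TAP1 and PSMB9 lay 488 bases apart on opposite strands, so the ends of their windows shared 13 bases.

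The heavy chain genes were lower in every KEAP1null-KYSE450 library than in every KYSE450 library. HLA-B, a classical heavy chain that presents peptides to T cells (chromosome 6, 31353872 to 31367067 in hg38, minus strand), had 4879, 4252 and 3411 normalized counts in the KYSE450 libraries. In KEAP1null-KYSE450 it had 2000, 1555 and 1489, which is 40.2% of the KYSE450 mean. Its log2 fold change was -1.31 (standard error, SE, 0.14, limma, Benjamini-Hochberg adjusted p = 1.2e-05 over 16701 genes). HLA-C, the other classical heavy chain of the group and a major ligand of inhibitory receptors on natural killer cells (31268749 to 31272130, minus strand), had 7807, 7387 and 6200 normalized counts in KYSE450. It had 3786, 3262 and 3081 in KEAP1null-KYSE450. The groups were again separate, with a log2 fold change of -1.08 (SE 0.11, limma adjusted p = 8.6e-06).

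HLA-E and HLA-F are nonclassical heavy chains with little variation between people. HLA-E, which presents leader peptides of other class I molecules to the CD94-NKG2A receptor (30489509 to 30494194, plus strand), had 11292, 10666 and 8982 normalized counts in KYSE450. Its values were 6491, 5822 and 5186 in KEAP1null-KYSE450, so the lowest KYSE450 library stood above the highest KEAP1null-KYSE450 library. The log2 fold change of -0.82 (SE 0.11, limma adjusted p = 8.1e-05) was the smallest among the heavy chains of the group, though differences between heavy chains were not tested. HLA-F (29722775 to 29738528, plus strand) had 1261, 1612 and 1312 normalized counts in KYSE450. It had 723, 757 and 573 in KEAP1null-KYSE450, a log2 fold change of -1.03 (SE 0.14, limma adjusted p = 7.0e-05). Reads of the heavy chain genes could have been split between these close paralogs and their pseudogenes. The annotation also places part of the exons of HLA-B and HLA-F under other genes, of which none exceeded 17.7 normalized counts in any library. The largest shared part was 30.7% of the exon bases of HLA-B, with a pseudogene on the same strand at 0 in every library. Low counts of these genes do not show how reads in shared exons were assigned.

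B2M, the light chain that all class I heavy chains share (chromosome 15, 44711358 to 44718851, plus strand), was the exception. Its normalized counts were 20568, 26429 and 28074 in KYSE450 and 21633, 26452 and 27102 in KEAP1null-KYSE450. The ranges of the lines overlapped almost completely, and the spread inside each line was far wider than the difference between the means. The log2 fold change was 0.01 (SE 0.13, 95% interval -0.28 to 0.29, limma adjusted p = 0.97), so the interval left out a fall as large as that of any heavy chain of the group. A description of balance was taken from counts per kilobase of the Ensembl canonical transcript. The summed level of HLA-B, HLA-C, HLA-E and HLA-F per kilobase was 0.620, 0.458 and 0.358 times that of B2M in the KYSE450 libraries. In the KEAP1null-KYSE450 libraries it was 0.296, 0.211 and 0.188 times that of B2M. Every KEAP1null-KYSE450 library was lower than every KYSE450 library, and mRNA levels do not give the amounts of protein.

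**Figure D1:**
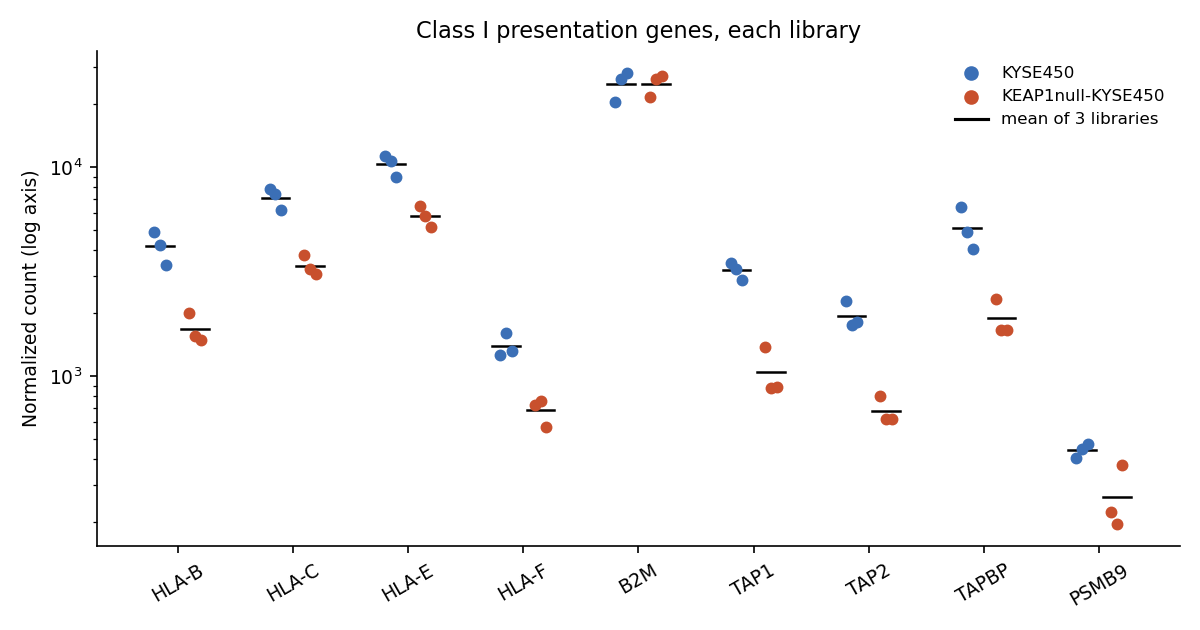
Normalized counts (log axis) of the 9 genes in 3 KYSE450 libraries (blue) and 3 KEAP1null-KYSE450 libraries (red), with a black bar at each mean. The colours stand apart for 8 genes, and for B2M they overlap around means of 25024 and 25062.

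Genes for peptide transport and tapasin fell by between 1.43 and 1.64 on the log2 scale, and their difference from the heavy chains was not tested. TAP1 and TAP2 encode the subunits of the TAP transporter, and neither subunit works alone. TAP1 (chromosome 6, 32845209 to 32853816, minus strand) had 3464, 3243 and 2887 normalized counts in KYSE450. It had 1384, 880 and 886 in KEAP1null-KYSE450, or 32.8% of the KYSE450 mean. Its log2 fold change of -1.64 (SE 0.16, limma adjusted p = 4.5e-06) was the largest fall in the group. TAP2 (32821833 to 32838739, minus strand) had 2277, 1752 and 1812 normalized counts in KYSE450. In KEAP1null-KYSE450 it had 800, 626 and 619, a log2 fold change of -1.51 (SE 0.14, limma adjusted p = 2.6e-06). The level of TAP1 per kilobase was between 3.20 and 3.89 times that of TAP2 in KYSE450 and between 2.95 and 3.64 times in KEAP1null-KYSE450, ranges that overlap. TAP1 shares 14.2% of its exon bases with PSMB8-AS1 on the opposite strand, which was at no more than 28.5 normalized counts in any library. TAP2 shares 19.5% with a protein-coding gene on the same strand, which was at 0 in every library. Here too, low counts of the overlapping genes do not show how shared reads were assigned.

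TAPBP encodes tapasin, which bridges the class I molecule and the transporter (33299694 to 33314284, minus strand). It had 6428, 4878 and 4063 normalized counts in KYSE450, the widest relative spread of the group in that line, with an SD of 23.4% of the mean. In KEAP1null-KYSE450 it had 2348, 1667 and 1662, all below the lowest KYSE450 library. The log2 fold change was -1.43 (SE 0.17, limma adjusted p = 2.1e-05). TAPBP shares 21.0% of its exon bases with a long noncoding RNA on the opposite strand, which was not in the matrix, so its level is not known.

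PSMB9, an interferon-inducible catalytic subunit that replaces PSMB6 in the immunoproteasome (32844136 to 32859851, plus strand), had the highest adjusted p of the 8 genes on chromosome 6. It had 403, 447 and 474 normalized counts in KYSE450. In KEAP1null-KYSE450 it had 222, 197 and 374, so that 1 library lay just under the KYSE450 range and the other two well below it. The log2 fold change was -0.79 (SE 0.21, 95% interval -1.25 to -0.33, limma adjusted p = 0.0082). With 1 library left out it ranged from -1.07 without KEAP1null-KYSE450 library 3 to -0.61 without KEAP1null-KYSE450 library 2 (limma adjusted p = 0.045 in the latter). The SD of PSMB9 in KEAP1null-KYSE450 was 36.3% of the mean, against 8.06% in KYSE450. PSMB9 overlaps exons of PSMB8 and PSMB8-AS1, which were at no more than 30.5 normalized counts in any library.

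In all, 8 of the 9 genes were lower and 0 were higher at an adjusted p under 0.05, where 25.5% of the 16701 tested genes were lower and 24.3% were higher, 49.8% in all. All 9 passed the filter on low values. With a log2 fold change of at least 1 as well, 6 genes were lower (HLA-B, HLA-C, HLA-F, TAP1, TAP2 and TAPBP), against 5.98% of tested genes. For the same 8 genes all KEAP1null-KYSE450 values lay below all KYSE450 values, which held for 29.3% of tested genes, while 28.4% showed the opposite order. The median log2 fold change of the 9 was -1.08, and that of all tested genes was 0.004. Because these are bulk libraries, fewer cells expressing a gene and less RNA per cell cannot be told apart.

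**Figure D2:**
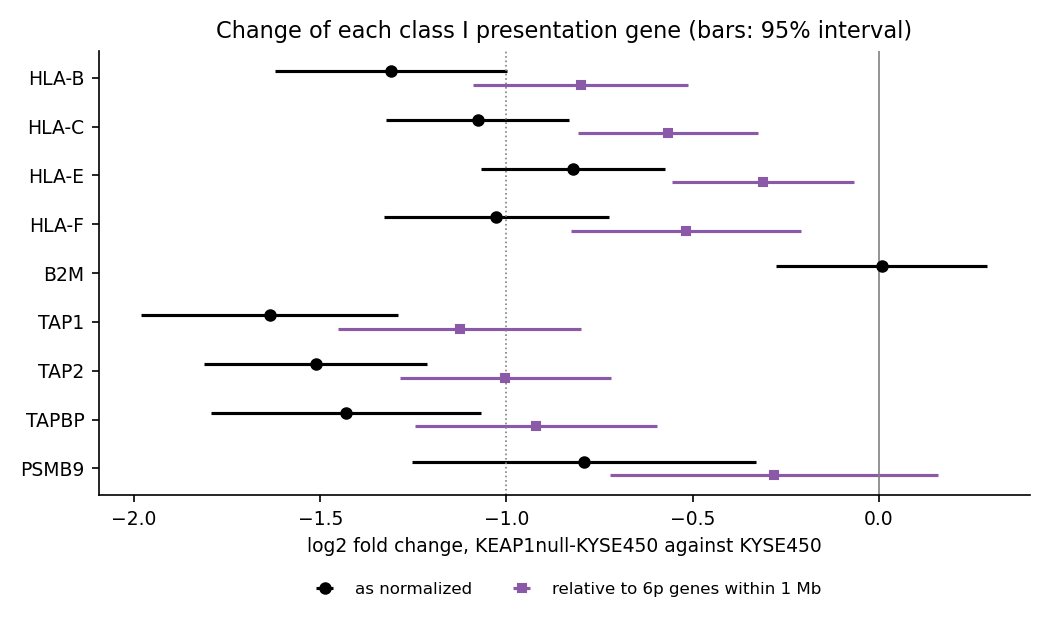
Log2 fold change of each gene in KEAP1null-KYSE450 against KYSE450 with 95% intervals, as normalized (black circles) and, for the 8 genes on chromosome 6, relative to the median of other short-arm genes within 1 Mb (purple squares). TAP1 stands furthest to the left at -1.64 and B2M at 0.01; the dotted line marks a log2 fold change of -1, and among the purple intervals only that of PSMB9 crosses 0.

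Because 8 of the 9 genes lie on the short arm of chromosome 6 (6p, taken here as starts below 58 Mb), their neighbours were measured as well. The median log2 fold change of the other 504 tested 6p genes was -0.28, and 42.9% of them were lower at an adjusted p under 0.05. Of these, the 139 within 1 Mb of a gene of the group had a median of -0.45 and were lower in 48.9% of cases, 68 genes, with 9 higher. The 366 tested genes of the long arm had a median of 0.10, and 21.6% of them were lower. The 24 tested genes within 1 Mb of B2M on chromosome 15 had a median of 0.14. Among all 504 other 6p genes, 216 were lower in the clone and 87 higher at an adjusted p under 0.05. The genes of the group lay toward the lower end of the region. Only 8 of the 139 near neighbours had fold changes as low as that of TAP1 or lower, the number for TAP2 was also 8, and it was 12 for TAPBP, 14 for HLA-B, 23 for HLA-C, 25 for HLA-F, 37 for HLA-E and 39 for PSMB9.

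The difference from the median of the neighbours was then tested by centring each library on the median of those 139 genes, a choice made after the data were seen. Relative to them TAP1 fell by 1.13 (95% interval -1.45 to -0.80), TAP2 by 1.00 (-1.29 to -0.72) and TAPBP by 0.92 (-1.25 to -0.59) on the log2 scale. HLA-B fell by 0.80 (-1.09 to -0.51), HLA-C by 0.57 (-0.81 to -0.33), HLA-F by 0.52 (-0.83 to -0.21) and HLA-E by 0.31 (-0.56 to -0.07). These 7 genes had adjusted p between 9.4e-06 and 0.026 from limma. Such p-values measure the spread between libraries, not the spread among the 139 genes. Before centring the quartiles of the 139 genes were -0.86 and 0.04, and HLA-E (-0.82) and PSMB9 (-0.79) lay between them. PSMB9 differed from the median of the neighbours by -0.28 (-0.72 to 0.16, adjusted p = 0.24 from limma), so a fall beyond that median was not detectable for it. Copy number was not measured, and the part of the region in these changes was not tested further.

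**Figure D3:**
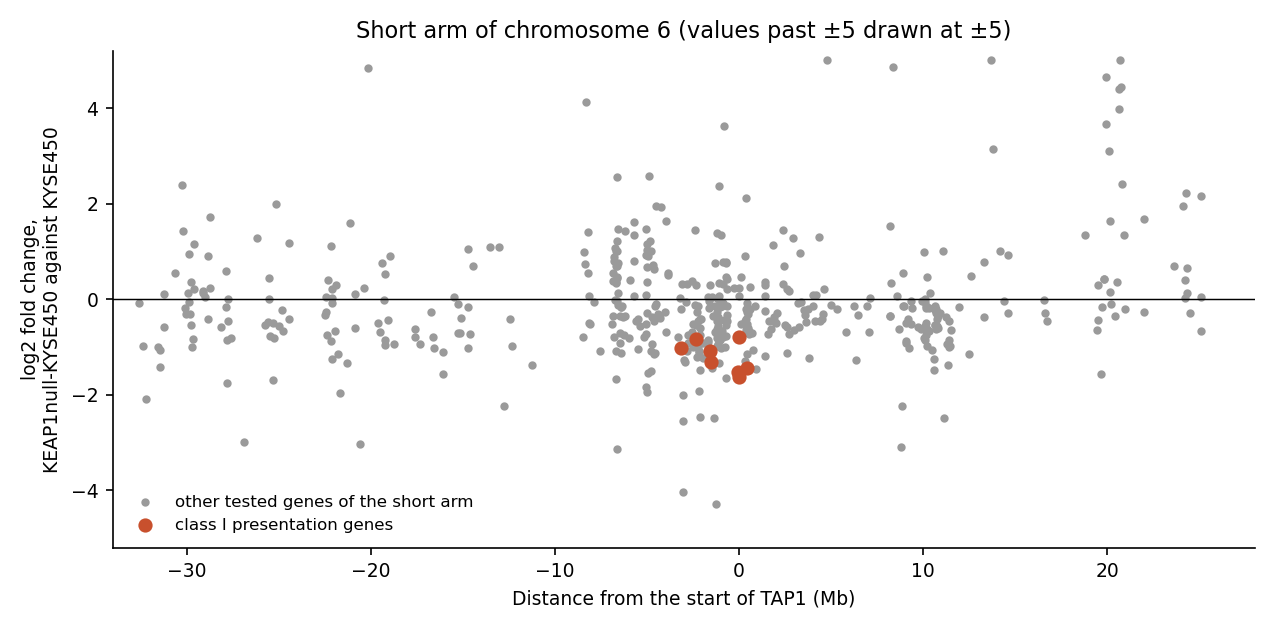
Log2 fold change of every tested gene on the short arm of chromosome 6 against its distance in Mb from the start of TAP1, with the 8 class I presentation genes in red. Grey points within 1 Mb of the red genes have a median of -0.45, values past 5 in either direction are drawn at 5, and the red points lie between -0.79 and -1.64.

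Levels of different genes were compared per kilobase of canonical transcript. In KYSE450 the order was B2M (26536 ± 4184 normalized counts per kilobase, SD, n = 3), HLA-C (4625 ± 541), HLA-E (4048 ± 469), HLA-B (2722 ± 480), TAPBP (1485 ± 348), TAP1 (1191 ± 109), HLA-F (943 ± 128), PSMB9 (434 ± 34.9) and TAP2 (345 ± 50.9). The ranges of HLA-C and HLA-E overlapped, as did those of TAPBP and TAP1, TAP1 and HLA-F, and PSMB9 and TAP2, so these neighbours in the order were not separated. In KEAP1null-KYSE450, B2M again led with 26577 ± 3168, followed by HLA-E (2289 ± 256), HLA-C (2190 ± 237), HLA-B (1095 ± 181), TAPBP (548 ± 114.5), HLA-F (463 ± 66.3), TAP1 (391 ± 108), PSMB9 (260 ± 94.4) and TAP2 (121 ± 18.2). With all annotated exon bases as the length, HLA-E came before HLA-C in both lines, and PSMB9 came last in KYSE450 but TAP2 in KEAP1null-KYSE450. In KEAP1null-KYSE450 the ranges per kilobase of canonical transcript of HLA-E and HLA-C, TAPBP and HLA-F, HLA-F and TAP1, and TAP1 and PSMB9 overlapped.

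Within each line, libraries were compared by which held a gene's highest and lowest count. The library with the lowest B2M count had the highest HLA-B, HLA-C, HLA-E, TAP1, TAP2 and TAPBP counts, in KYSE450 and in KEAP1null-KYSE450 alike. In KYSE450 library 2, however, B2M, HLA-B, HLA-C, HLA-E and TAP1 were all above the line's mean log2 value and TAP2 and TAPBP below it. In KYSE450 the deviations of these 6 genes, B2M left aside, from the line's mean lay between -0.31 and 0.35 on the log2 scale, smaller than each gene's difference between the lines. PSMB9 and HLA-F were not highest in the library with the lowest B2M count.

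Among 12332 other genes whose mean reached 100, the profiles nearest to the mean centred log2 profile of the 9 genes over the 6 libraries were those of CD151, WNT10B, CERS2, RRM1 and FANCE, with Euclidean distances from 0.065 to 0.119. CD151 is a tetraspanin that associates with integrins, RRM1 a subunit of ribonucleotide reductase, CERS2 a ceramide synthase, WNT10B a WNT ligand and FANCE a Fanconi anemia protein. FANCE is on 6p and the other four are not.

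Other genes of the pathway were taken from 7 lists, leaving out the 9 genes. Of 100 tested genes in these lists 43 were lower and 9 higher at an adjusted p under 0.05, where 25.5% of all tested genes were lower and 24.3% were higher. The counts of each list below are to be read against the same shares. Class I and class I-like molecules included 11 tested genes, of which 7 were lower and 2 higher, with a median log2 fold change of -0.89. Of these 11 genes 5 were on 6p, and among the 6 elsewhere 2 were lower and 2 higher. RAET1L, a ligand of the activating receptor NKG2D on the long arm of chromosome 6, had 149.7, 164.8 and 172.5 normalized counts in KYSE450 and 24.9, 19.4 and 17.2 in KEAP1null-KYSE450. MICB, another NKG2D ligand, on 6p, fell from 848 ± 38.0 to 153 ± 33.3 (SD, n = 3 each). HLA-G, a nonclassical heavy chain, had 95.2, 55.6 and 77.4 normalized counts in KYSE450 and 21.2, 11.2 and 23.2 in KEAP1null-KYSE450. RAET1G and MR1 were higher, RAET1G at low counts (12.8, 0 and 6.53 against 47.1, 22.4 and 18.2) and MR1 with a log2 fold change of 0.32. Without KEAP1null-KYSE450 library 1, or without library 2, 0 genes of this list were called higher, and likewise with eBayes without trend.

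Of 10 peptide loading genes outside the group, none of them on 6p, 6 were lower and 1 was higher, with a median log2 fold change of -0.63. CALR encodes calreticulin, a lectin chaperone of the loading complex. It had 32882, 33194 and 32402 normalized counts in KYSE450 and 18991, 14631 and 14694 in KEAP1null-KYSE450, a log2 fold change of -1.04 (SE 0.11, limma adjusted p = 1.1e-05). HSPA5, the general chaperone of the endoplasmic reticulum, fell by 0.99 on the log2 scale. ERAP1, the aminopeptidase that trims peptides to fit class I grooves, fell by 0.93 (SE 0.15). PDIA3, the disulfide isomerase bound to tapasin and named after its values were seen, fell by 0.90. TAPBPL, the tapasin-related protein TAPBPR that edits peptides outside the loading complex, rose from 126 ± 46.3 to 412 ± 87.3 normalized counts (SD, n = 3 each). The direction of TAPBPL was thus opposite to that of TAPBP.

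The immunoproteasome and its activators were mixed. Of 6 tested genes besides PSMB9, 1 was lower and 2 were higher. PSMB8, the catalytic subunit encoded beside PSMB9, had only 28.9, 19.2 and 19.6 normalized counts in KYSE450 and 30.5, 19.4 and 21.2 in KEAP1null-KYSE450, with a log2 fold change of 0.06 (95% interval -0.80 to 0.93). PSMB10, the remaining inducible catalytic subunit, which is on chromosome 16, rose by a log2 fold change of 0.56 and PSME1, a subunit of the interferon-inducible activator, by 0.47. PSME3 fell by 0.44. The constitutive core of the proteasome had 14 tested genes, with 7 lower, 0 higher and a median of -0.29. The number lower was 10 without KYSE450 library 1, 4 without KYSE450 library 2, KYSE450 library 3 or KEAP1null-KYSE450 library 2, 4 with DESeq2 or eBayes without trend, 3 with quantile normalization and 2 with edgeR. PSMB6, PSMB7 and PSMB5, the constitutive counterparts of PSMB9, PSMB10 and PSMB8, fell by 0.41, 0.42 and 0.27, and the largest falls were those of PSMB4 (0.71) and PSMB2 (0.56). PSMB9 per kilobase was between 0.027 and 0.031 times PSMB6 in KYSE450, and it was 0.020, 0.018 and 0.032 times PSMB6 in KEAP1null-KYSE450, where library 3 stood above the KYSE450 range.

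Regulators of the class I genes showed 7 calls, all under a log2 fold change of 1. Among 25 tested genes of class I transcription and interferon signalling 6 were lower and 1 was higher. Of these called genes 0 passed a log2 fold change of 1 in either direction. Over all tested genes 18.2% were called past it, 5.98% lower and 12.2% higher. NLRC5, the transactivator of class I genes, had 303, 238 and 244 normalized counts in KYSE450 and 221, 164 and 123 in KEAP1null-KYSE450, a log2 fold change of -0.65 (SE 0.22, limma adjusted p = 0.025). NFKB1 fell by 0.63 and IRF1, an interferon-induced factor that binds the response element shown above, by 0.56 (adjusted p = 0.0086 from limma). JAK2, a kinase of the interferon-gamma receptor, rose by 0.47. Of this list edgeR called 1 gene lower and DESeq2 2, each with 0 higher, and without KYSE450 library 1 there were 3 higher.

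Interferon-stimulated genes were lower in 16 cases. Of 32 tested genes, none of them on 6p, these 16 were lower and 3 higher, and 8 were lower past a log2 fold change of 1, with a median of -0.52. IFITM1 and IFITM3, membrane proteins that restrict virus entry, fell from 1973 ± 230 to 349 ± 63.4 and from 10009 ± 545 to 3370 ± 191 normalized counts (SD, n = 3 each). OASL, which resembles the oligoadenylate synthetases, fell by 1.99 on the log2 scale. The list did not move as 1 block, since IFI44L rose from 64.2 ± 12.8 to 432 ± 45.3 normalized counts (SD, n = 3 each), and MX1 and UBE2L6 rose by 0.63 and 0.49. The number of genes higher was 1 without KYSE450 library 3, without any one KEAP1null-KYSE450 library, without the filter on low values, and with quantile normalization, edgeR or DESeq2. MHC class II genes were at low counts in both lines. Of 12 in the matrix 10 had a mean under 10 and were not tested, and the remaining 2, HLA-DRB1 and HLA-DMA, did not pass the test.

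**Figure D4:**
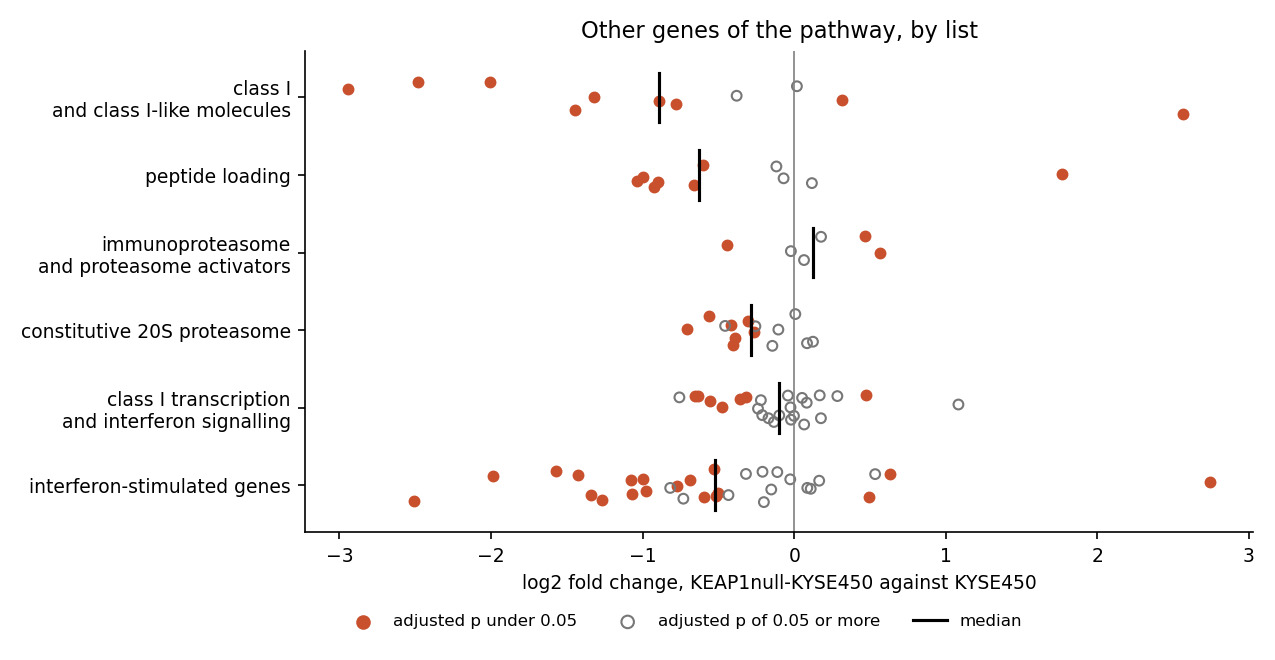
Log2 fold change of each tested gene of 6 lists in KEAP1null-KYSE450 against KYSE450, filled where the adjusted p was under 0.05, with a black bar at the list's median. Medians lie at -0.89 for class I-like molecules, -0.63 for peptide loading and -0.52 for interferon-stimulated genes, and between -0.29 and 0.12 for the other three.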

How the data were processed

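RNA from 3 KYSE450 and 3 KEAP1null-KYSE450 libraries was sequenced. By the methods and the submitters' processing notes, the authors aligned reads to hg38 with STAR (version 2.6.90c) and counted them per gene with featureCounts (version 1.5.1), and they name DESeq2 for differential expression. The deposited values are a signal, read counts divided by 1 factor per library. Strand-specific counting is not given in the sources used here. How reads in exons shared between genes were counted was not tested, so a low count of an overlapping gene does not show that no reads were lost. For 4 libraries 100% of values were whole multiples of 1 step (tolerance 0.1 read), which gave back reads, and the other libraries were left out of tests on reads. Columns name the line only, so libraries carry numbers by column order, and nothing says whether they were separate cultures: p-values measure the spread between libraries. At this depth 3 reads, the floor of detection, correspond to about 3 normalized counts, which covers counting error only.

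Differences were tested, two-sided, with limma (version 3.58.1, R 4.3.3, eBayes with trend) on log2(normalized count + 1) over the 16701 genes whose mean reached 10, with Benjamini-Hochberg adjustment. Fold changes on this scale understate low genes. Positions and lengths came from gencode v44 (hg38), which held 16630 of the tested genes, and promoters from RefSeq. edgeR (version 4.0.16) and DESeq2 (version 1.42.0) were run on recovered reads. Scripts were tested on simulated data. The genes of the group and the lists were chosen with earlier results of these data known. Named genes were all 9 genes, up to 3 called genes per list and direction with the largest changes, 8 genes named in any case, and the 5 nearest profiles. Some results under this rule are not reported here.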

Additional observations from a re-analysis of the deposited data

How the results depend on the processing

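The 8 genes that were lower stayed lower at an adjusted p under 0.05 in all 15 alternatives to the processing (a pseudocount of 0.1 or 10, no filter on low values, a minimum mean of 100, equal totals, quantile normalization, eBayes without trend, edgeR, DESeq2 and each library left out). Past a log2 fold change of 1 there were 5 or 6. Only KYSE450 libraries 1 and 3 and KEAP1null-KYSE450 libraries 1 and 2 entered edgeR and DESeq2. Both thus left out KEAP1null-KYSE450 library 3, which had the highest PSMB9 count of that line. Their log2 fold changes of PSMB9, -1.03 and -1.06, lay near the -1.07 of limma without that library. Leaving out each library in turn gave a median of the 9 genes between -1.17 and -1.05. The sign of B2M was not fixed: its log2 fold change was -0.012 with DESeq2 on 4 libraries, between -0.13 and 0.11 with 1 library left out, and 0.20 at most, with quantile normalization. PSMB9 lost its call when libraries were centred on 6p genes, at -0.48 over all of them and -0.28 over those within 1 Mb, both added after the data were seen. Over the lists, genes lower numbered 26 with edgeR on 4 libraries and between 37 and 45 with 1 library left out, and genes higher numbered 5 with DESeq2 and between 5 and 11 with 1 library left out. Without KEAP1null-KYSE450 library 1 or library 2 there were 5. Over all genes edgeR called 2472 lower and 2914 higher and DESeq2 2732 and 2617, where limma on 6 libraries called 4251 and 4060. No paired analysis was possible because the columns carry no replicate number.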
